A study of Mus musculus with 20 samples.

Results

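Microglia labelled as cortex were compared at end-stage, the labels' word, between animals carrying an active BRAF V600E allele in microglia and control animals. The 4 libraries whose titles name cortex and end-stage were taken, 2 from mutants and 2 from controls, out of 20 in the series. The other 16 were brainstem-labelled end-stage libraries (4) and libraries from both regions of 2-month mice (12). The mutant mice M1376 and M1524 carried the Braf allele with a loxP-stop-loxP cassette before the V600E form (labelled Braf VE) and were heterozygous for Cx3cr1-CreER. The 2 controls had unlike genotypes: mouse M1375 carried the Braf allele and was wild type at Cx3cr1, so it had no Cre, and mouse M1521 had Cx3cr1-CreER and wild-type Braf. All pregnant dams, per the labels' protocols, received 37.5 mg per kg 4-hydroxytamoxifen at embryonic day 9.5. The Cre was thus driven by the fractalkine receptor gene, which is on in microglia and other macrophages of yolk sac origin, and the mutants and control M1521 were labelled heterozygous at that gene. The labels gave no age for end-stage mice.

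Microglia are the macrophages that live in brain tissue. They survey it with processes that carry purinergic receptors, clear debris and lipid, and in injury or degeneration lower a set of homeostatic genes while raising genes for lipid handling and phagocytosis. BRAF relays growth factor signals from RAS to the kinases MEK and ERK, and the V600E form is active without that input. Genes such as Egr1, Fos, the DUSP phosphatases and the ETS factors Etv4 and Etv5 are switched on by ERK.

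Depth was 9.4e6 and 14.3e6 counts in the controls M1375 and M1521, and 18.5e6 and 17.3e6 in the mutants M1376 and M1524, so the controls were the shallower libraries. Hox transcripts of the hindbrain ran against the region label in the series, and the libraries are therefore called cortex-labelled. The 12 microglial markers were all detected and summed to between 83613 and 87076 CPM (counts scaled to a fixed library total) in controls and between 69230 and 70892 CPM in mutants. Markers of border macrophages, monocytes and oligodendrocyte precursors summed higher in mutants than in controls (63.6 to 288 against 25.2 to 32.2 CPM, 232 to 1079 against 25.8 to 37 CPM, and 38.4 to 90.5 against 5.92 to 6.78 CPM). In mutants the border macrophage sum was mostly Siglec1 (29.7 and 222 CPM) and Ms4a7 (18.2 and 46.7 CPM), and none of its 9 tested markers passed the test. Of its other markers, Mrc1 overlapped between the groups (2.91 and 3.5 CPM in controls, 2.47 and 3.71 CPM in mutants) and Cbr2 read 6.89 and 4.61 CPM against 1.29 and 3.71 CPM. The monocyte sum was mostly Fn1, Ms4a6c and Ms4a4c, while Ly6c2 and Chil3 had 0 counts in all 4 libraries. Cspg4 made up nearly all of the precursor sum in mutants while Pdgfra stood at 0 to 0.28 CPM, and Olig1 (3.01 and 3.85 CPM against 0 and 0.331 CPM) and Sox10 (2.69 and 0.699 CPM against 0.0561 and 0 CPM) read lower in mutants and did not pass the test. Neuronal markers summed to 10.9 and 23.1 CPM in controls and to 3.31 and 3.87 CPM in mutants. Astrocyte markers were uneven within both groups, at 139 and 1169 CPM in controls M1375 and M1521 and 758 and 245 CPM in mutants M1376 and M1524. Slc1a3 made up most of that sum. Gfap read higher in mutants (0.323 and 0.0699 CPM against 2.58 and 11.6 CPM) and Aldoc lower (7.42 and 8.67 CPM against 2.41 and 2.78 CPM). Of the 4 astrocyte markers tested 0 passed. The part of these other cells in the results was not tested, and in bulk libraries fewer cells of a type cannot be told apart from less RNA per cell.

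Braf was read at 15.8 and 6.08 CPM in controls and at 18.4 and 13.9 CPM in mutants (adjusted p = 0.663), and gene counts do not show the V600E change. Cx3cr1 was highest in the control that is wild type there, at 4470 CPM, against 2208 CPM in the other control and 1503 and 1532 CPM in mutants. Within 5 megabases of these 2 genes, 0 of 53 tested genes around Braf and 2 of 95 around Cx3cr1 passed the test, against 2.33% of all genes. Those 2, chosen here for their position, were the ribosomal protein genes Rpl14 and Rpsa.

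Of 15224 genes tested, 355 (2.33%) differed between mutants and controls at an adjusted p under 0.05 by edgeR's quasi-likelihood test with Benjamini-Hochberg adjustment. In mutants 200 genes (1.31%) rose and 155 (1.02%) fell, and 2706 genes had an unadjusted p under 0.05. Rises had a median log2 difference of 2.27 and ran up to 11.24. For these ranges a group with no counts at all was set to 3 counts, the most that a count of 0 allows. The top value, that of Colec12, is a fitted one without such a bound and rests on 1 count in control M1521 and 0 in control M1375. Falls had a median of -1.88 and ran down to -7.49. A change of at least 4-fold was seen in 111 of the genes that rose and 68 of those that fell. Over all genes the 2 groups did not overlap in 7738 (50.8%), so the lack of overlap alone says little with 2 libraries against 2. The median log2 difference of all genes was 0.02. Scaling by library totals without TMM moved it to -0.09 and turned the split from 200 higher and 155 lower to 159 higher and 222 lower. Called genes were mostly protein coding, with 185 of the 200 and 148 of the 155.

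The calls rested on all 4 libraries. Without control M1375, control M1521, mutant M1376 or mutant M1524, the number of genes called was 8, 93, 136 and 60. Of the 98 called genes named by rule, 5, 37, 48 and 31 stayed called in those fits. Genes called without any 1 of the 4 libraries numbered 7. They were Egr1, an early ERK-induced transcription factor, Dgat2, which makes triglyceride, the basement membrane gene Nid2, the ATP-gated channel gene P2rx1, the unconventional myosin gene Myo18b, the tetraspanin gene Tspan18 and Klhdc8b.

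**Figure D1:**
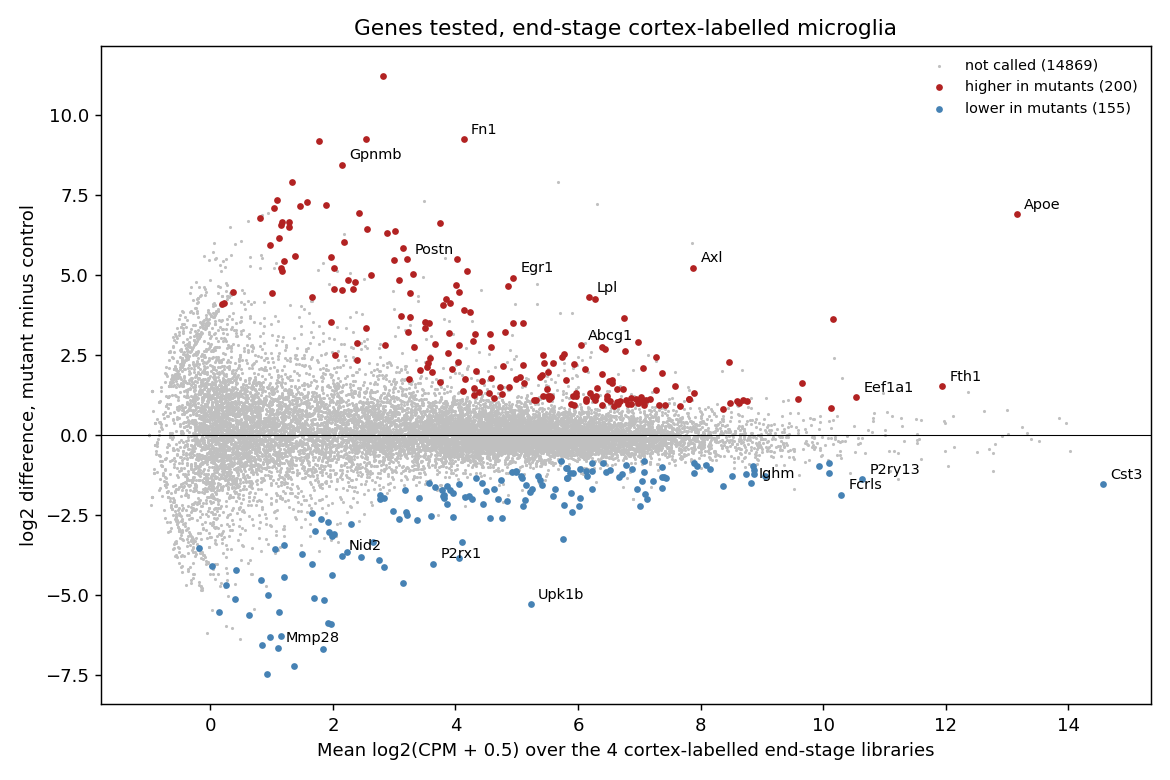
Each point is 1 of 15224 tested genes, with the mean log2(CPM + 0.5) over the 4 cortex-labelled end-stage libraries on the x axis and the log2 difference, mutant minus control, on the y axis. Genes that were at 0 counts in a whole group are drawn at their bound. Red marks the 200 genes called higher and blue the 155 called lower. Apoe stands alone at the upper right, far above every other gene of like abundance.

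Genes of sterol and lipid export and storage were among the rises. Apoe, the main lipid carrier of the brain (GRCm38 chr7:19696109-19699188, minus strand), was read at 673 CPM in control M1375, 1017 CPM in control M1521, 98095 CPM in mutant M1376 and 104393 CPM in mutant M1524. Both mutants lay near 1 level and 120-fold above the control mean by the fit (log2 difference 6.90 ± 0.72 SE, adjusted p = 0.00631). Abcg1, a transporter that moves sterols out of the cell, stood at 23.9 and 25.5 CPM in controls and at 166 and 179 CPM in mutants. It rose 6.98-fold (log2 difference 2.80 ± 0.25 SE, adjusted p = 0.0041). Its partner transporter Abca1 read 81.5 and 52.3 CPM in controls against 392 and 336 CPM in mutants (adjusted p = 0.027).

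Lpl, which frees fatty acids from lipoproteins, stood at 10.5 and 23.7 CPM in controls and 465 and 221 CPM in mutants (20-fold, adjusted p = 0.00848). Apoc1 and Apoc4 code for small apolipoproteins and lie beside Apoe (chr7:19689481-19692660 and chr7:19678083-19681479, both on the minus strand). Each had 0 counts in control M1375 and 1 count in control M1521. In mutants Apoc1 reached 49.4 and 9.21 CPM and Apoc4 reached 6.28 and 9.94 CPM (adjusted p = 0.028 and 0.0283). No fold is given for these, because the controls held 1 count in all. Whether reads of Apoe ran on into its neighbours was not tested.

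In all, 6 of 20 tested genes known as targets of the sterol sensor LXR rose and 0 fell. The list median was 0.79 on the log2 scale, and 1.31% of all genes were called higher. Without M1375, M1521, M1376 or M1524, 0, 3, 3 and 4 of the 6 stayed called. Among 24 genes that make sterols 0 were called (median -0.17). At an unadjusted p under 0.05 there was 1, and DESeq2 and limma-voom each called 0.

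Fat storage genes gave 3 rises and 1 fall of 33 tested (median 0.06), against 2.33% of all genes called. Dgat2, the enzyme of the last step of triglyceride synthesis, was nearly absent in controls, at 1.4 and 0.0699 CPM, and read 54 and 50.1 CPM in mutants (log2 difference 6.31 ± 0.81 SE, adjusted p = 0.00959). Fabp5, a fatty acid carrier, went from 1.94 and 2.87 CPM to 35.4 and 28 CPM (13.2-fold, adjusted p = 0.0148). The elongase gene Elovl5 was the remaining rise, with 41.7 and 41.8 CPM against 83.6 and 79.9 CPM (adjusted p = 0.0313). Mgll, a lipase that breaks down monoacylglycerols, fell from 98.9 and 79.3 CPM to 34.9 and 20.2 CPM (adjusted p = 0.0209). Of these 4, 1, 1, 2 and 1 stayed called without M1375, M1521, M1376 or M1524.

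**Figure D2:**
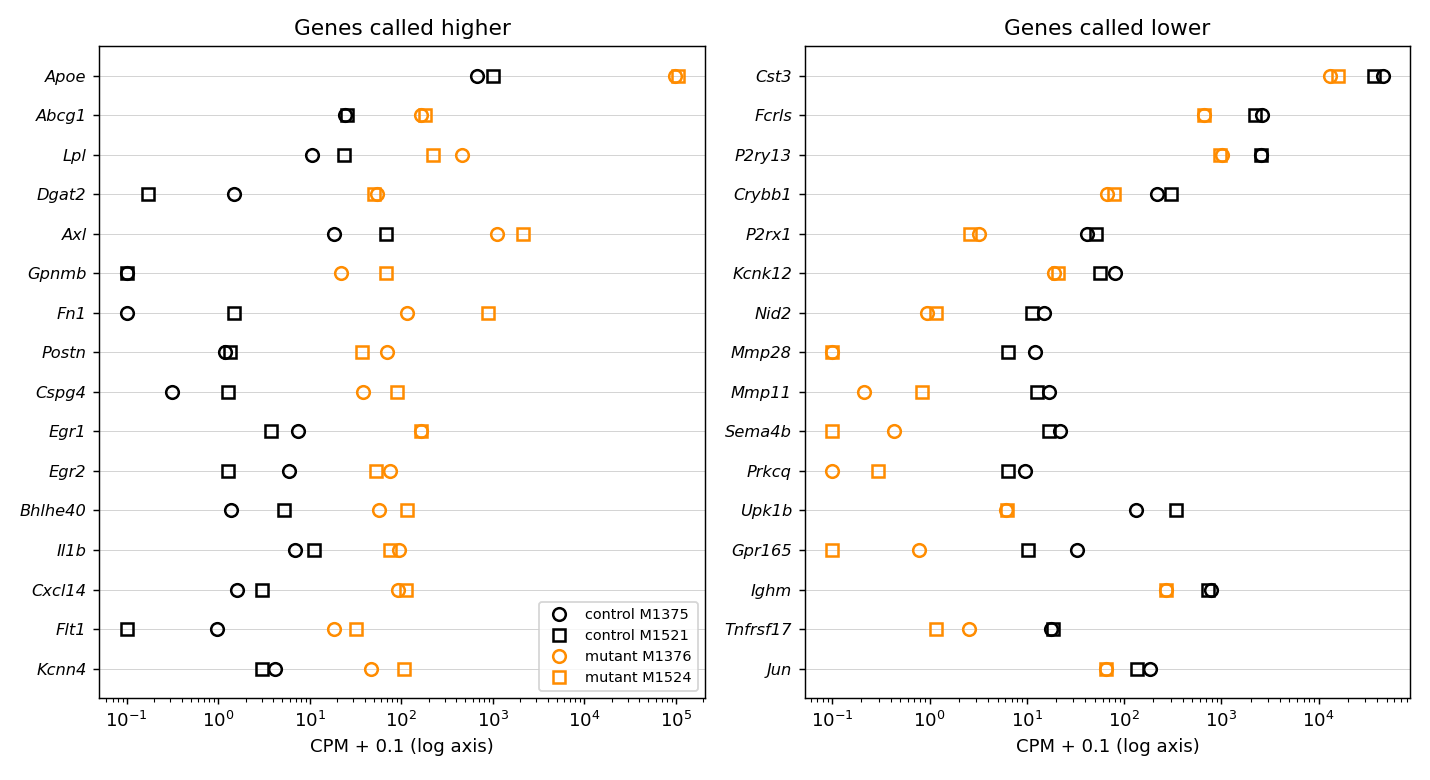
CPM + 0.1 on a log axis for 16 genes called higher (left) and 16 called lower (right), with 1 point per library. Black circles and squares are the controls M1375 and M1521, orange ones the mutants M1376 and M1524. The groups do not overlap in any called gene, and so in none of these 32, while 50.8% of all genes do not overlap. In Apoe, Abcg1, Fcrls and Ighm the libraries of each group lie close together.

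Genes that microglia are known to raise around plaques and dying neurons were among the rises. Of 26 tested members of the disease-associated list, 11 rose and 0 fell, against 1.31% of all genes called higher. The list median was 1.78, against 0.02 for all genes. Besides Apoe, Lpl and Fabp5 they were Ank, Axl, Cd63, Clec7a, Cst7, Gpnmb, Igf1 and Lgals3. Axl, a receptor kinase for phosphatidylserine-bridging ligands, read 18.2 and 68.2 CPM in controls and 1115 and 2155 CPM in mutants (log2 difference 5.23 ± 1.05 SE, adjusted p = 0.0416). Gpnmb, a glycoprotein of lysosomes and the cell surface, had 0 counts in both controls and 21.9 and 67.9 CPM in mutants, which is a rise of at least 353-fold if the controls are given 3 counts in all (adjusted p = 0.00848). The growth factor gene Igf1 had 0 counts and 1 count in controls and 15.6 and 8.35 CPM in mutants (adjusted p = 0.0121).

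Other members did not pass. Trem2, the lipid-sensing receptor of this state, read 2726 and 2722 CPM in controls and 2494 and 2319 CPM in mutants (log2 difference -0.18 ± 0.23 SE, adjusted p = 0.748). Spp1, a secreted phosphoprotein, read 11.4 and 63.8 CPM against 955 and 3941 CPM, groups well apart, but its test did not pass (log2 difference 6.01 ± 1.49 SE, adjusted p = 0.0826). Of the 11 called members, 0, 4, 4 and 4 stayed called without M1375, M1521, M1376 or M1524.

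Homeostatic genes fell by smaller amounts. Of 21 tested, 5 fell and 0 rose, against 1.02% of all genes called lower, and the list median was -0.97. Fcrls, an Fc receptor-like gene of mouse microglia, read 2591 and 2197 CPM in controls and 657 and 659 CPM in mutants (log2 difference -1.86 ± 0.23 SE, adjusted p = 0.00848). P2ry13, an ADP receptor, went from 2570 and 2579 CPM to 1010 and 961 CPM (2.61-fold lower, adjusted p = 0.0148). Cst3, a secreted inhibitor of cathepsins, read 45759 and 37111 CPM in controls and 12925 and 15701 CPM in mutants (2.89-fold lower, adjusted p = 0.0412).

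The crystallin gene Crybb1 fell 3.59-fold (adjusted p = 0.0169) and Ecscr, a membrane protein first known from endothelium, fell 4.03-fold (adjusted p = 0.0395). P2ry12, the ADP receptor that guides microglial processes, read 3904 and 3973 CPM in controls and 1988 and 1065 CPM in mutants and missed the threshold (log2 difference -1.37 ± 0.29 SE, adjusted p = 0.0529). Tmem119 read 8834 and 8497 CPM against 4271 and 7512 CPM (adjusted p = 0.449). Without M1375, M1521, M1376 or M1524, 0, 1, 1 and 0 of the 5 stayed called, and limma-voom called 9 falls.

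Surface receptors and channels gave both rises and falls. Of 94 tested G-protein-coupled receptors 5 rose and 4 fell, and of 53 ion channel genes 3 rose and 2 fell. Of all genes tested, 1.31% rose and 1.02% fell. The purinergic genes moved in both directions. P2rx1, an ATP-gated cation channel, read 41.6 and 50.8 CPM in controls and 3.14 and 2.52 CPM in mutants (16.3-fold lower, log2 difference -4.02 ± 0.39 SE, adjusted p = 0.00523). P2ry2, a receptor for ATP and UTP, rose from 3.12 and 3.43 CPM to 35.5 and 38.5 CPM (11.3-fold, log2 difference 3.49 ± 0.32 SE, adjusted p = 0.0041). With P2ry13 and P2ry10b, named as a P2Y receptor, both lower, 4 of 10 tested P2 receptor genes were called, a family counted after the values were seen. For that family 1, 2, 2 and 3 calls held without M1375, M1521, M1376 or M1524.

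Potassium channels also went both ways. Kcnn4, opened by calcium, read 4.09 and 2.87 CPM in controls and 46.4 and 107 CPM in mutants (22-fold, adjusted p = 0.0241). Kcnk12, of the leak channel family, fell from 79.9 and 56.9 CPM to 18.7 and 20.7 CPM (3.47-fold, adjusted p = 0.00809). The cation channel gene Trpc4 had 0 counts in both controls and 28.9 and 7.49 CPM in mutants, a rise of at least 143-fold (adjusted p = 0.0291), and Trpm2 rose 4.21-fold (adjusted p = 0.0416). Of the 5 channel calls, 1, 2, 4 and 2 held without M1375, M1521, M1376 or M1524.

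Among the remaining G-protein-coupled receptors, Adora1, Gpr65, Gpr83 and Htr2b rose, and those that fell included Gpr165 and Ptger3. Gpr165 read 32.7 and 10.2 CPM against 0.673 and 0 CPM (adjusted p = 0.0201). Ptger3, a prostaglandin E receptor, read 4.52 and 1.89 CPM against 0 counts in both mutants (at least 35.2-fold lower, adjusted p = 0.027). In the 4 fits without 1 library, 0, 3, 4 and 1 of the 9 receptor calls held.

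Of 13 receptor tyrosine kinases 3 rose and 0 fell, against 1.31% of all genes called higher. They were Axl and the VEGF receptors Flt1 (0.861 and 0 CPM against 18.5 and 31.9 CPM, adjusted p = 0.0402) and Kdr (1.72 and 1.75 CPM against 8.02 and 17.5 CPM, adjusted p = 0.0243). Their ligand Vegfa, with 0 and 2 counts in controls, reached 6.78 and 10.2 CPM (adjusted p = 0.0373). Flt1 and Kdr were also 2 of the endothelial markers, and Cldn5, the defining tight junction gene of brain endothelium, had 0 counts in all 4 libraries. Pecam1, from the same marker list, read lower in mutants and did not pass (35.1 and 13.2 CPM against 10 and 6.16 CPM). Pdgfrb, Cdh5 and Abcc9 overlapped between the groups. Of 58 cytokine receptors 2 rose and 1, Tnfrsf17, fell, against 2.33% of all genes called. Csf2rb, the shared receptor chain for GM-CSF and related cytokines, rose 2.2-fold and Csf2rb2 rose 2.47-fold (adjusted p = 0.0201 and 0.0494). Of these 3 kinases 0, 0, 1 and 0 stayed called without M1375, M1521, M1376 or M1524.

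Of 21 genes that ERK signalling is known to switch on, 6 rose, 1 fell and 14 did not pass (median 1.87). Of all genes 2.33% were called. Egr1, a zinc finger factor, read 7.32 and 3.71 CPM in controls and 164 CPM in each mutant (29.7-fold, log2 difference 4.92 ± 0.40 SE, adjusted p = 0.0041). Egr2 went from 5.81 and 1.19 CPM to 75.2 and 52.8 CPM (adjusted p = 0.0204). Plaur, the urokinase receptor, went from 26.9 and 41.6 CPM to 246 and 195 CPM (6.44-fold, adjusted p = 0.00963). Fos, Ier2 and Phlda1 were the other rises and Klf2, a factor linked to quiescence, was the fall (72.1 and 33.8 CPM against 11.2 and 15.1 CPM, adjusted p = 0.0464). Without M1375, M1521, M1376 or M1524, 1, 3, 2 and 2 of the 7 stayed called.

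The ETS genes Etv4 and Etv5, often used as readouts of ERK signalling, did not pass. Etv4 read 0.215 and 1.47 CPM in controls and 10.8 and 8.21 CPM in mutants (log2 difference 3.41 ± 1.14 SE, adjusted p = 0.172). Etv5 was alike, with 138 and 192 CPM against 135 and 192 CPM (adjusted p = 0.984). Among 18 feedback genes, Dusp1, a nuclear phosphatase of MAP kinases, rose from 8.82 and 8.95 CPM to 67.8 and 53 CPM (6.8-fold, adjusted p = 0.00631), and Dusp7, a cytoplasmic one that acts on ERK, fell from 410 and 308 CPM to 148 and 168 CPM (2.27-fold, adjusted p = 0.0231). Dusp6, the phosphatase most used as an ERK readout and named here after its values were seen, read 1019 and 801 CPM against 732 and 852 CPM (adjusted p = 0.649). Of these 2 calls, 0, 1, 1 and 1 held without M1375, M1521, M1376 or M1524. Of 24 genes of the cascade itself, 0 were called (3 higher and 6 lower at p under 0.05 before adjustment, 1 higher and 2 lower by DESeq2, 0 by limma-voom). Of all genes 2.33% were called.

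Other transcription factors gave 6 rises and 2 falls of 42 tested, with a median of 0.08, against 2.33% of all genes called. Bhlhe40, a basic helix-loop-helix repressor, had the largest rise among these, from 1.29 and 5.1 CPM to 57.6 and 114 CPM (26.9-fold, adjusted p = 0.0121). Id2, which blocks such factors, went from 45.5 and 48.7 CPM to 149 and 114 CPM (adjusted p = 0.0157). Jun, the AP-1 partner of Fos, fell from 186 and 135 CPM to 64.6 CPM in each mutant (2.49-fold, adjusted p = 0.0174). The calls also included Atf3, Cebpb and Mitf, which rose, and Ets1, which fell. Of the 8, 0, 2, 2 and 1 stayed called without M1375, M1521, M1376 or M1524. Nrarp, a gene switched on by Notch, fell from 8.29 and 6.08 CPM to 0.28 and 0 CPM (adjusted p = 0.0298).

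Cytokines and chemokines went both ways. Of 41 tested, 4 rose and 3 fell (median 0.69), against 2.33% of all genes called. Cxcl14, a chemokine, read 1.51 and 2.87 CPM in controls and 91.3 and 111 CPM in mutants (46.3-fold, log2 difference 5.49 ± 0.60 SE, adjusted p = 0.00631). Ccl4 rose from 39.2 and 56.5 CPM to 500 and 224 CPM (adjusted p = 0.0214), beside Ccl3 and Il1b (6.13-fold and 9.47-fold, adjusted p = 0.0283 and 0.034). Il6 fell from 19.7 and 21 CPM to 4.82 and 1.72 CPM (adjusted p = 0.0418), Clcf1, of the same cytokine family, from 82 and 55.7 CPM to 25.1 and 17.5 CPM (adjusted p = 0.0263), and Il18 2.21-fold (adjusted p = 0.0356). Without M1375, M1521, M1376 or M1524, 0, 1, 2 and 3 of the 7 stayed called.

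Of 15 complement genes 2 rose, against 1.31% of all genes called higher. C3, the central component, went from 0.108 and 2.66 CPM to 74.1 and 230 CPM (adjusted p = 0.0403), and C2 from 0.753 and 0.559 CPM to 8.3 and 22.5 CPM (adjusted p = 0.0412), and both calls were lost without each of the 4 libraries. C1qa, one of the most abundant microglial transcripts, read 8738 and 9007 CPM against 10161 and 11096 CPM (adjusted p = 0.608). All 30 interferon-response genes had positive differences with a median of 1.81, yet 1 was called, Ifi207 (0.323 and 0.559 CPM against 15.2 and 19.5 CPM, adjusted p = 0.037), and that call was lost without each library. The list summed to 568 and 912 CPM in controls and to 1014 and 3394 CPM in mutants, so M1524 held most of it. In brainstem-labelled libraries of the same mice the list median was larger, at 3.47. Of 22 antigen presentation genes 0 were called, with 2 higher at p under 0.05 before adjustment, 1 by DESeq2 and 0 by limma-voom. Tlr5, the flagellin receptor, fell from 7.96 and 8.18 CPM to 1.57 and 0.861 CPM (adjusted p = 0.016), a call lost without M1375, M1521 and M1524.

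Of 20 matrix glycoproteins and proteoglycans, 5 rose, 1 fell and 14 did not pass (median 1.39), against 2.33% of all genes called. Postn, which codes for a matrix protein of healing tissue, read 1.08 and 1.26 CPM in controls and 70.4 and 37.1 CPM in mutants (46.1-fold, log2 difference 5.50 ± 0.48 SE, adjusted p = 0.0041). Fn1, fibronectin, read 0 and 1.4 CPM in controls and 114 and 879 CPM in mutants (adjusted p = 0.0256), so the mutants themselves lay far apart. Cspg4, the NG2 proteoglycan, went from 0.215 and 1.19 CPM to 38.1 and 89.4 CPM (90.8-fold, adjusted p = 0.00959).

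Tgfbi, an integrin-binding matrix protein, rose from 71.6 and 58.1 CPM to 251 and 303 CPM (4.27-fold, adjusted p = 0.00718), and Ecm1 rose 29.6-fold from 0.215 and 1.33 CPM (adjusted p = 0.0373). Nid2, a basement membrane protein (GRCm38 chr14:19751265-19811787, plus strand), was the member that fell, from 14.8 and 11.3 CPM to 0.841 and 1.06 CPM (13.8-fold, log2 difference -3.78 ± 0.32 SE, adjusted p = 0.0041). Of the 6, 1, 3, 5 and 3 stayed called without M1375, M1521, M1376 or M1524. Collagens had 0 calls of 10 tested (1 higher and 1 lower at p under 0.05 before adjustment, 1 higher by DESeq2, 0 by limma-voom). Of all genes 2.33% were called.

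Enzymes that cut matrix moved in both directions. Mmp12, the macrophage elastase, rose from 1.83 and 10.6 CPM to 163 and 164 CPM (26.3-fold, adjusted p = 0.0198), together with Adam33 (22.6-fold, adjusted p = 0.0452). Mmp28 read 12.1 and 6.36 CPM in controls and 0 counts in both mutants (at least 101-fold lower, adjusted p = 0.00908). Mmp11 fell from 16.9 and 12.7 CPM to 0.112 and 0.729 CPM (35.2-fold, adjusted p = 0.0106), and Adamts16 fell 5.7-fold (adjusted p = 0.0296). These were 2 rises and 3 falls of 27 proteases, against 2.33% of all genes called. Of the 5, 0, 3, 2 and 2 stayed called without M1375, M1521, M1376 or M1524. Hpse, which cleaves heparan sulphate, had 0 counts in both controls and 7.34 and 11 CPM in mutants (a rise of at least 72.1-fold, adjusted p = 0.0125).

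Contact and guidance genes gave 2 rises and 2 falls of 32, against 2.33% of all genes called. Sema4b, a membrane semaphorin, read 21.6 and 16.8 CPM in controls and 0.336 and 0 CPM in mutants (log2 difference -6.68 ± 0.79 SE, adjusted p = 0.00748). Efnb1, an ephrin, fell from 63.4 and 61.9 CPM to 23 and 29 CPM (adjusted p = 0.0311). The semaphorin receptors Plxnd1 (3.34 and 1.75 CPM against 13.3 and 22.1 CPM, adjusted p = 0.0314) and Nrp1 (64.2 and 65.2 CPM against 165 and 183 CPM, adjusted p = 0.0347) rose. Of the 4, 0, 1, 1 and 1 held without M1375, M1521, M1376 or M1524.

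The genes of actin-based feet and motors gave 4 rises and 2 falls of 26, against 2.33% of all genes called. Sh3pxd2b, an adaptor of podosomes, rose from 1.4 and 0.559 CPM to 49.6 and 59.6 CPM (55.8-fold, adjusted p = 0.0201), and Myo5a, a cargo-carrying myosin, from 4.52 and 7.69 CPM to 45.7 and 40.7 CPM (adjusted p = 0.0105). Fscn1, which bundles actin in filopodia, fell from 658 and 490 CPM to 240 and 232 CPM (2.43-fold, adjusted p = 0.016). Of the 6, 1, 3, 1 and 1 stayed called without M1375, M1521, M1376 or M1524. Tubulins were counted as a family after their values were seen: of 12, Tuba1a (303 and 253 CPM against 59.1 and 60.2 CPM) and Tubb2b (28.3 and 30.6 CPM against 6.89 and 6.16 CPM) fell (adjusted p = 0.00748 and 0.00631), and these 2 calls were lost without M1375 and M1524.

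Ighm, Ighd and Cd79b, which code for parts of the B cell receptor, fell, while genes that define a B cell were at or near 0 in both groups. Of all genes 1.02% were called lower. Ighm, the constant region of IgM heavy chains, read 788 and 735 CPM in controls and 267 and 272 CPM in mutants (2.83-fold lower, log2 difference -1.50 ± 0.23 SE, adjusted p = 0.0179). Ighd fell from 31 and 23.9 CPM to 4.65 and 4.9 CPM (5.75-fold, adjusted p = 0.00631) and Cd79b, a signalling chain of the B cell receptor, from 67.6 and 48.1 CPM to 15.6 and 12 CPM (4.2-fold, adjusted p = 0.00856). Ms4a1 and Igkc stood between 0 and 0.28 CPM in the 4 libraries and Pax5 had 0 counts in each. The fourth testable member, Cd79a, which pairs with Cd79b, did not pass, at 0.215 and 0 CPM in controls and 0.897 and 0.199 CPM in mutants (adjusted p = 0.454). Of the 3 falls, 0, 2, 2 and 1 stayed called without M1375, M1521, M1376 or M1524.

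Tnfrsf17, the BCMA receptor of plasma cells, read 17.4 and 18.7 CPM against 2.47 and 1.06 CPM (10.2-fold, adjusted p = 0.0105), and Bank1, a B cell scaffold, 15.7 and 11.7 CPM against 0.897 and 1.26 CPM (12.7-fold, adjusted p = 0.00631). Of 4 tested Gimap genes, which code for GTPases first known from lymphocytes, Gimap1, Gimap6 and Gimap9 fell (adjusted p = 0.0252, 0.00963 and 0.00631). Of all genes 1.02% were called lower. Gimap6 read 51.6 and 55.5 CPM in controls and 6.89 and 3.64 CPM in mutants. Klrd1, a receptor subunit of natural killer cells, fell from 4.95 and 3.78 CPM to 0.336 and 0 CPM (adjusted p = 0.0278), and Cd3e, Cd3g, Trac, Nkg7 and Ncr1 had 0 counts in all 4 libraries. Klrb1c, from the same marker list and too low to test, went the other way, with 0 counts in both controls and 22 and 9 counts in mutants. Bank1 and the Gimap family were picked out after their values were seen, and 0, 2, 2 and 2 of the 3 Gimap calls held without M1375, M1521, M1376 or M1524.

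Ribosomal proteins held more called genes than any other of the lists. Of 77 tested genes for cytoplasmic ribosomal proteins 31 rose and 0 fell, against 1.31% of all genes called higher. They split into 17 of 30 small-subunit and 14 of 47 large-subunit genes, with rises of 0.82 to 1.54 on the log2 scale. The list median was 0.92, and 76 of 77 differences were positive, the exception being Rps27l at -0.12. Summed over the 77 genes, controls M1375 and M1521 held 6236 and 6944 CPM and mutants M1376 and M1524 held 13559 and 11424 CPM. Rpl32 read 108 and 118 CPM in controls and 370 and 286 CPM in mutants (2.91-fold, adjusted p = 0.00963), Rps19 read 82.7 and 108 CPM against 267 and 239 CPM (adjusted p = 0.0203), and Rps18 read 80.2 and 74.9 CPM against 194 and 152 CPM (2.23-fold, adjusted p = 0.0215).

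The count depended on the libraries and the tool. Of the 31 calls 0, 0, 1 and 2 stayed without M1375, M1521, M1376 or M1524. DESeq2 called 61, limma-voom 31, scaling by library totals 12 and the fit on all 20 libraries by the sample record 0. Many processed pseudogenes copy these genes, and the sources used here do not say how reads that fit several places were counted, so each gene's value is uncertain. In the controls the genes took 0.620% and 0.701% of all counts and in the mutants 1.31% and 1.002%, each with a 95% Wilson interval no wider than 0.0052 percentage points on either side, which covers counting error only. The 6 cortex-labelled 2-month libraries spanned 0.512% to 1.27%, a range that holds both end-stage groups but for M1376. Gm26917 and Gm23935, predicted genes to which ribosomal RNA reads can map, also rose, from 203 and 505 CPM to 2767 and 5993 CPM and from 558 and 481 CPM to 1058 and 1235 CPM (adjusted p = 0.0212 and 0.0206). Their part in the ribosomal protein result was not tested.

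Many messenger RNAs of the translation machinery start with a C and a run of pyrimidines, the 5′ terminal oligopyrimidine motif, through which the TOR kinase and the protein LARP1 set their translation and stability. Bases around the annotated start of 6 of the called ribosomal protein genes and of Eef1a1 are printed to show the pyrimidine run there, 5′ to 3′ on the gene's strand, from RefSeq on GRCm38.p6. Each line holds 15 bases on each side of the start, with the annotated start at base 16. Capitals mark a run of pyrimidines that begins with C and has, within 10 bases of the start, a C followed by at least 5 pyrimidines. In these 7 genes the annotated start lies inside the run, which begins 1 to 8 bases before it, so the annotated first base is not the C that opens the run. The lines were picked, and other called ribosomal protein genes differ. In Rps15a the annotated first base is the C that opens the run. In Rps2, Rps23 and Rps26 the run begins after the annotated start.
Rps18, chr17:33955651-33955680, minus strand: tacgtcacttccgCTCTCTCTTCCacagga
Rpl35, chr2:39005117-39005146, minus strand: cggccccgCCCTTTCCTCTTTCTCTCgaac
Rpl14, chr9:120571502-120571531, plus strand: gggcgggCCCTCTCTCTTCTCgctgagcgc
Rplp2, chr7:141447636-141447665, plus strand: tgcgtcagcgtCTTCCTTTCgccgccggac
Rps9, chr7:3704026-3704055, plus strand: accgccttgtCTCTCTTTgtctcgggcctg
Rps6, chr4:86857353-86857382, minus strand: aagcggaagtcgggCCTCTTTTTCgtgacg
Eef1a1, chr9:78481710-78481739, minus strand: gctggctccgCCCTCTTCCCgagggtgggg

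A C followed by at least 5 pyrimidines within 10 bases of the start was counted, whether or not the start lay inside the run. Such a tract was found for 30 of the 57 ribosomal protein genes that had an entry (52.6%) and for 10 of 21 that were called (47.6%). Among tested protein-coding genes it was found for 1828 of 9451 (19.3%). Only 57 of 77 ribosomal protein genes and 9451 of 11950 tested genes had an entry, under 80% in each case, so these shares describe the genes with an entry and are void as a check of the list. Rps18, Rpl35, Rpl14, Rplp2, Rps9 and Rps6 rose 2.23-fold, 2.34-fold, 2.2-fold, 1.96-fold, 2.1-fold and 1.9-fold. Rps27l, which did not pass, has a tract that ends before its annotated start. In Rpl15 and Rpl27a, which did not pass either, the start lies inside the run. Genes that did not rise past the threshold therefore share the feature.

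Other parts of the translation machinery rose in a few members. Among 63 initiation and elongation factors, counted after their values were seen, 4 rose and 0 fell (median 0.01). Of all genes 1.31% were called higher. Eef1a1, which brings transfer RNA to the ribosome, read 890 and 1100 CPM in controls and 2329 and 2166 CPM in mutants (2.26-fold, adjusted p = 0.0184). Eef2, which moves the ribosome along, read 307 and 289 CPM against 564 and 696 CPM (2.11-fold, adjusted p = 0.0401), and Eif3f and Eif4b rose 2.2-fold and 2.08-fold. Pabpc1, the poly(A)-binding protein, rose 3.1-fold (adjusted p = 0.0134) and Larp1 rose 2.11-fold (adjusted p = 0.0298), both named after their values were seen. All 4 factor calls were lost without each of the 4 libraries.

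Other large complexes had no calls. Of all genes 2.33% were called, so few calls would be met in lists of this size at that share. Of 77 mitochondrial ribosomal proteins 0 passed (median -0.31, with 1 higher and 10 lower at an unadjusted p under 0.05, and none by DESeq2 or limma-voom). Of 78 nuclear genes of the respiratory chain 0 passed (median -0.17, with 2 higher and 9 lower at an unadjusted p under 0.05, and none by DESeq2 or limma-voom). Of 42 proteasome genes 0 passed (median -0.33, with 14 lower at p under 0.05 before adjustment, 2 lower by DESeq2 and 0 by limma-voom). The 11 mitochondrially encoded genes had a median of 0.92 with 0 calls (2 higher at p under 0.05 before adjustment, 1 by DESeq2, 0 by limma-voom), and summed to 2715 CPM in mutant M1376 but 1184 CPM in M1524 and 873 and 1104 CPM in controls.

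**Figure D3:**
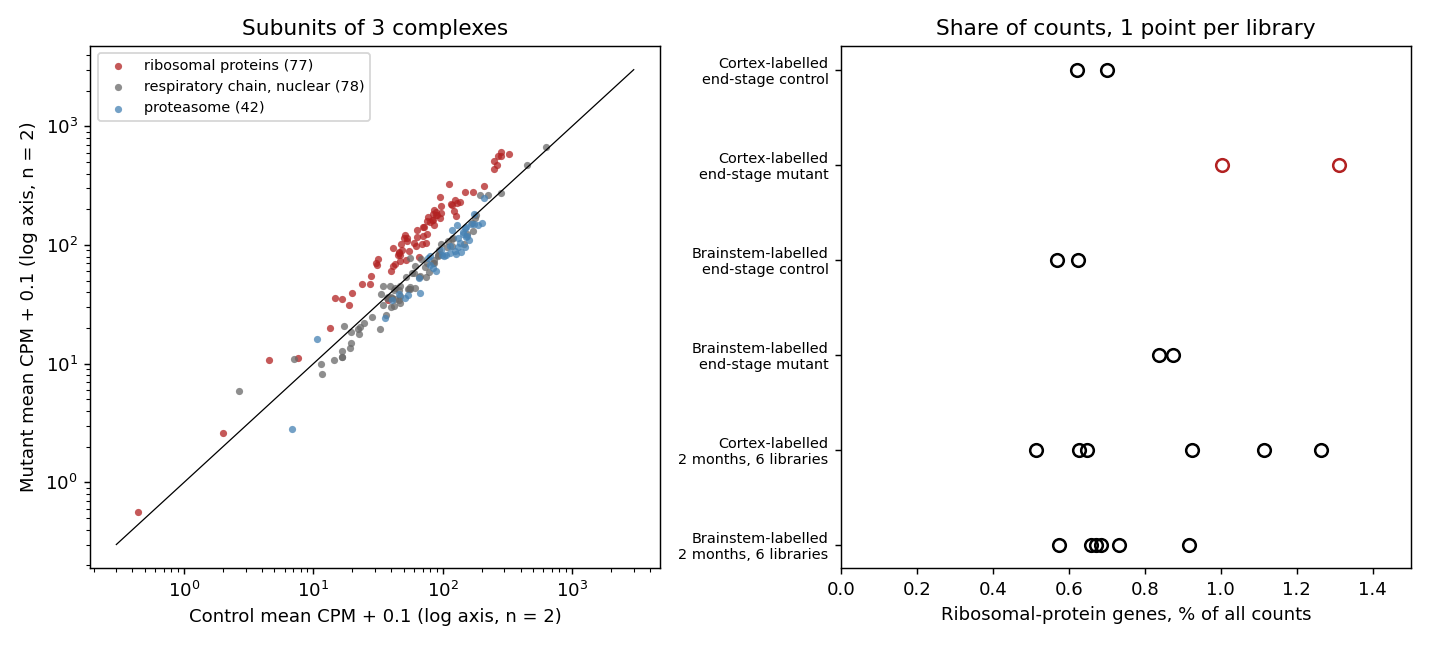
Left, mean CPM + 0.1 of each gene in mutants against controls (log axes, n = 2 each) for 3 complexes, with the line of equality. Ribosomal proteins (red, 77 genes) lie above the line but for Rps27l, and the respiratory chain (grey, 78) and proteasome (blue, 42) lie mostly along or below it. Right, the share of all counts in ribosomal protein genes with 1 point per library. The mutants at 1.31% and 1.002% lie above the end-stage controls but within or next to the range of the 2-month cortex-labelled libraries.

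Cell division and sugar metabolism had no calls, against 2.33% of all genes called, a share at which lists this short hold few calls. Of 34 cell cycle genes 0 passed (median -0.08, 2 higher and 1 lower before adjustment at a p under 0.05, none by DESeq2 or limma-voom), and of 25 glycolytic genes 0 passed (median -0.04, 4 higher and 1 lower unadjusted, 1 higher by DESeq2, 0 by limma-voom). Iron genes rose in 2 of 17, against 1.31% of all genes called higher. Fth1, the heavy chain of ferritin, went from 2167 and 2482 CPM to 6515 and 6943 CPM (2.89-fold, adjusted p = 0.00748). Hmox1, which frees iron from heme, went from 54.7 and 45.7 CPM to 162 and 161 CPM (adjusted p = 0.0278). Lysosomal genes rose in 2 of 29, Cd63 and Gla, the latter alpha-galactosidase A, from 6.56 and 5.1 CPM to 27.7 and 40.5 CPM (adjusted p = 0.0127). Atp13a2, a polyamine exporter of the lysosomal membrane, was outside that list and rose from 158 and 162 CPM to 729 and 818 CPM (4.84-fold, log2 difference 2.27 ± 0.18 SE, adjusted p = 0.0041). Of the 2 iron and 2 lysosomal calls, 0 held without M1375, 0 without M1521, 1 and 1 without M1376, and 0 without M1524.

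Further large falls were of genes with unlike roles. Enpp5, an ectoenzyme of the pyrophosphatase family, read 18.7 and 8.46 CPM in controls and 0 counts in both mutants (at least 149-fold lower, adjusted p = 0.00848). Khdrbs3, a splicing regulator, went from 45 and 39.8 CPM to 2.8 and 0.53 CPM (25.4-fold, adjusted p = 0.00748), and Snph, which anchors mitochondria in axons, from 16.8 and 20.7 CPM to 0.28 and 0.331 CPM (61.3-fold, adjusted p = 0.00963). Upk1b, a tetraspanin of the bladder lining, read 132 and 345 CPM in controls and 6 and 6.16 CPM in mutants (39.2-fold, adjusted p = 0.0086). Prkcq, protein kinase C theta, read 9.47 and 6.36 CPM against 0 counts and 3 counts (adjusted p = 0.00963), and Duoxa1, a maturation factor of hydrogen peroxide-making oxidases, fell 35.5-fold (adjusted p = 0.00963). Of these 6, the calls of Enpp5, Khdrbs3 and Prkcq were lost without M1375 alone, that of Upk1b without M1376 or M1524, that of Duoxa1 without M1375 or M1524, and that of Snph without M1375, M1376 or M1524.

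Some rises started at or near 0. Colec12, a scavenger receptor with a collectin domain, had 0 counts and 1 count in controls and 42.3 and 199 CPM in mutants (adjusted p = 0.00963). Pianp, a ligand of the receptor PILRA, had 1 count in each control and 13.3 and 15.9 CPM in mutants (adjusted p = 0.00631). Klrb1b, a lectin-like receptor, had 2 counts and 0 counts in controls and 41.5 and 75.2 CPM in mutants (adjusted p = 0.0181). Nectin3, an adhesion molecule, had 0 counts in both controls and 6.61 and 19 CPM in mutants (a rise of at least 101-fold, adjusted p = 0.0464). Such switches were few: 6 genes had 0 counts in both controls and at least 5 CPM in both mutants, and 3 had the reverse. For comparison 12 genes had 0 counts in 1 control and at least 5 CPM in the other.

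**Figure D4:**
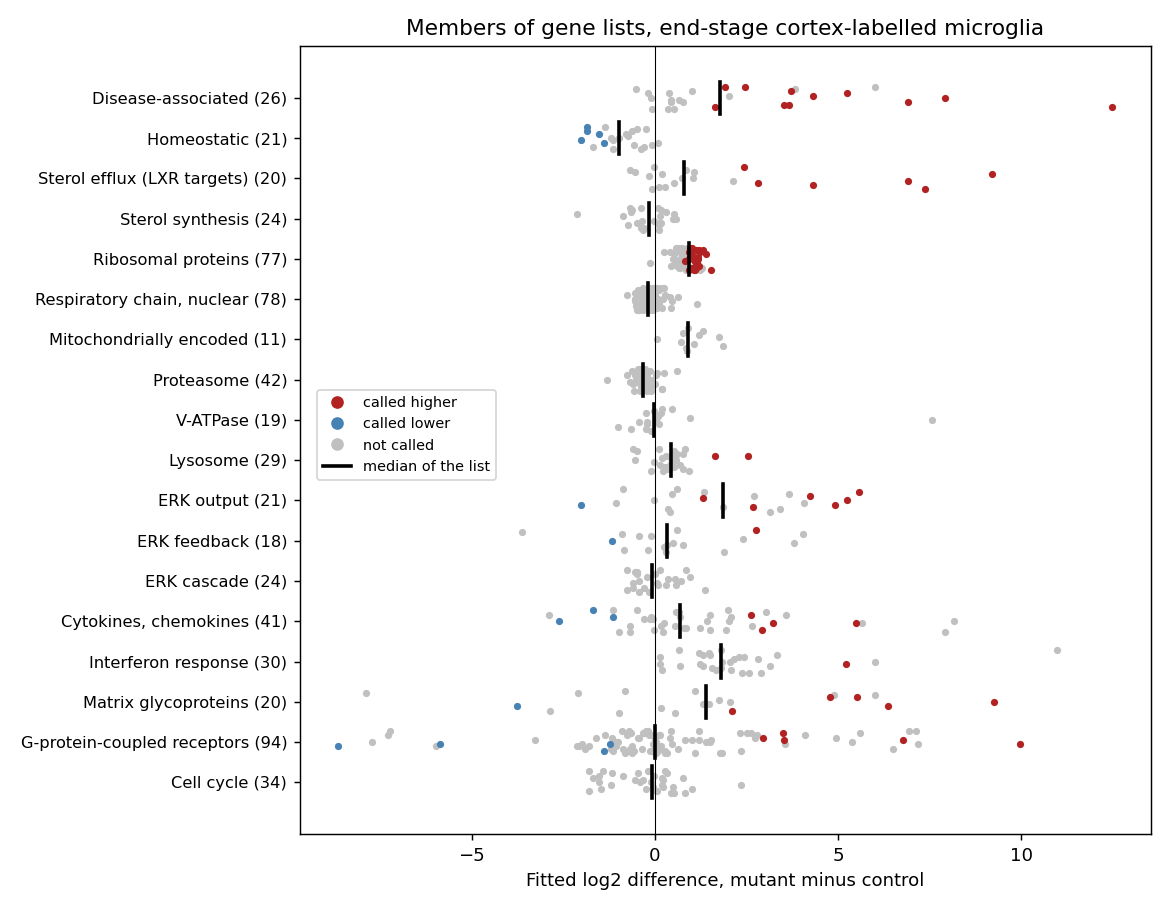
Fitted log2 difference, mutant minus control, of each tested member of 18 gene lists, with the number tested in brackets. Red points were called higher, blue lower and grey not called, and black bars are list medians. Ribosomal proteins form a narrow cloud with a median of 0.92, the disease-associated and matrix lists spread widely, and the respiratory chain and proteasome lie at or below 0.

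The same 4 mice gave brainstem-labelled libraries. There 15 of 15224 genes (0.0985%) were called, with 1551 at an unadjusted p under 0.05. Of the 200 genes that rose in cortex-labelled libraries 176 had a positive brainstem difference (median 0.79), and of the 155 that fell 144 had a negative one (median -0.69). Among those called in both, Fcrls and Jun fell, with brainstem log2 differences of -2.34 and -1.71, and P2ry2 and Per1, a clock gene, rose by 2.53 and 2.54 there. The test of the difference between regions called 0 genes (0%) by edgeR, with 785 at an unadjusted p under 0.05, 104 called by DESeq2 and 0 by limma-voom. Since each mouse gave both libraries, the same test was made with mouse as a replicate block, and it called 33 genes, of which 25 were among the 355.

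With the block, Apoe was 1 of the 33. Its rise was larger by 3.37 on the log2 scale in cortex-labelled than in brainstem-labelled libraries (adjusted p = 0.0274), where it stood at 3.36. Abcg1 and Postn rose in the cortex-labelled libraries and had brainstem differences of 0.14 and 0.27 (block adjusted p = 0.0162 and 0.0142). For Abcg1 the controls differed between regions, with 23.9 and 25.5 CPM in cortex-labelled and 131 and 116 CPM in brainstem-labelled libraries. Its mutants M1376 and M1524 read 166 and 179 CPM in cortex-labelled and 168 and 105 CPM in brainstem-labelled libraries. Nid2 fell by 3.78 in cortex-labelled libraries and stood at 0.43 in brainstem-labelled ones (block adjusted p = 0.0138), and Upk1b, Khdrbs3, Sema4b, Mmp28 and Enpp5 were also among the 33. Leaving out 1 mouse at a time from the fit without the block gave 0 or 1 call.

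**Figure D5:**
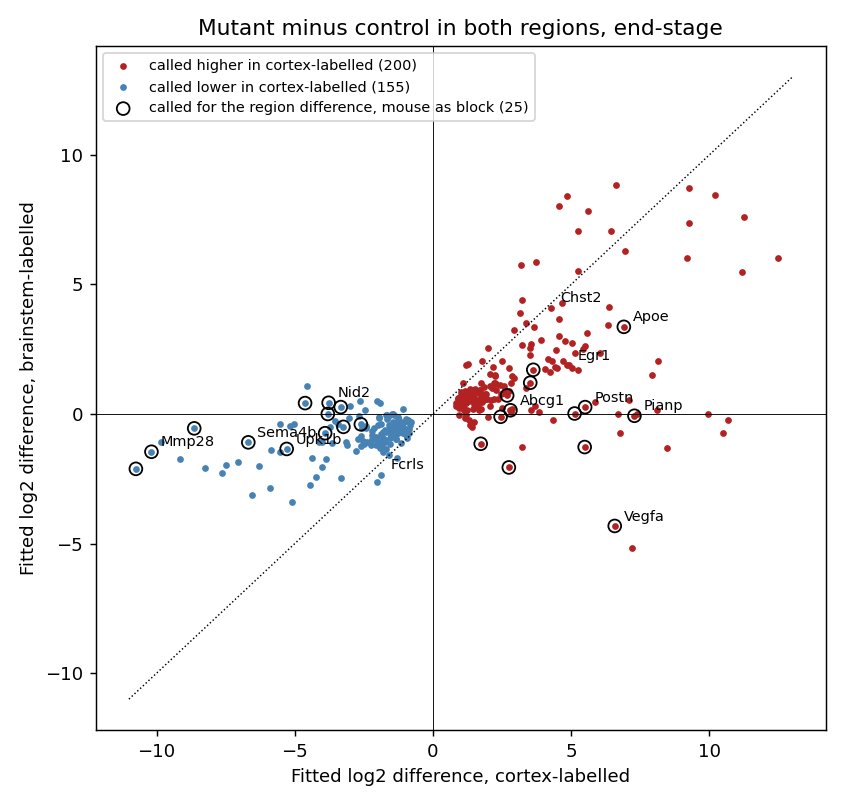
Fitted log2 difference, mutant minus control, in cortex-labelled (x axis) and brainstem-labelled (y axis) end-stage libraries for the 355 genes called in the cortex-labelled libraries, which were chosen on the x axis. Red points rose and blue points fell there, black rings mark the 25 called for the region difference with mouse as block, and the dotted line is equality. Most points lie nearer 0 on the y axis than on the x axis, including Apoe, Postn and Nid2.

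The difference was also set against that at 2 months in the cortex-labelled libraries. With genotypes by the sample record, 75 of 16595 genes (0.452%) differed in their genotype effect between stages, and 67 of them were among the 355. In 5 of the 6 mice of that age, title and count column carried conflicting mouse numbers, and reading genotype through the count column gave 44 genes (0.265%), of which 29 were among the 355. Both readings called 22 genes. Abcg1, Apoe, Dusp1, P2rx1, Postn, Tgfbi and Upk1b were among them. Without M1375, M1521, M1376 or M1524 the count by the record was 8, 30, 27 and 3.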

How the data were processed

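RNA was amplified with SMART-Seq v4 and sequenced on a NovaSeq, per the labels' protocols. The sources used here do not say how cells were purified. Raw counts per gene were deposited, 1 column per library. The submitters' processing notes name FastQC, Subread, edgeR and mm10 with neither version nor role. The sources used here give no annotation, strand setting or handling of multi-mapping reads. Reads may therefore be shared between overlapping genes, antisense pairs and near-identical copies. Symbols came from GENCODE M21 (55394 of 55487 identifiers). The 93 unnamed identifiers stayed in the counts and were not named.

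The 4 cortex-labelled and 4 brainstem-labelled end-stage libraries were fitted together as 4 groups with edgeR 4.0.16 in R 4.3.3 (filterByExpr, TMM, quasi-likelihood, Benjamini-Hochberg over all 15224 genes, threshold 0.05). The 12 libraries at 2 months were left out because their labels conflict, and entered only the stage comparison and 2 alternatives. CPM used TMM-scaled totals, errors are SE of the log2 difference, and n was 2 per group, with 4 residual degrees of freedom. Each library was 1 mouse per the labels. A count of 0 allows 3 counts, which is 0.127 CPM over the control group and 0.0911 CPM over the mutant group, for counting error only. DESeq2 1.42.0, limma 3.58.1 (voom, and voom with mouse as a block), other scalings and filters and leaving out libraries were tried, and leaving out both libraries of a mouse was added after seeing the data. Tracts at starts were read from RefSeq promoters (GRCm38.p6). Shares of promoters with AP-1, ETS, PU.1, E-box, AP-2 or CRE motifs are not given, since under 80% of the genes had an entry.

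Members, lists and rules were chosen with earlier results of these data known. Named genes had an adjusted p under 0.05, a mean log2(CPM + 0.5) of at least 1, no overlap and no predicted, Riken or pseudogene name, and were the 12 largest rises and falls, the 8 most counted in each direction and up to 3 members by p of each list. Braf, Cx3cr1, Etv4, Etv5, Apoe, Lpl, Spp1, Trem2, P2ry12, Tmem119 and the most counted marker of each other cell type were named whatever their values. A few genes that the rule names are not reported here, though counts over lists include them. Genes outside this rule complete short lists of called members or were chosen after their values were seen.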

Additional observations from a re-analysis of the deposited data

Results flagged for a closer look

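For 29 named genes the genotype effect in cortex-labelled libraries differed between end-stage and 2 months by a test of the difference itself, an interaction term in edgeR's quasi-likelihood fit over all 20 libraries with 2-month genotypes by the sample record. The adjusted p of that difference is given for each gene. Among genes that rose at end-stage they were Abcg1 0.0082, Apoe 0.0082, Dgat2 0.0391, Dusp1 0.00183, Egr2 0.0322, Fabp5 0.0283, Lpl 0.0492, Pianp 0.0232, Postn 0.0239 and Tgfbi 0.0137. Among genes that fell at end-stage they were Duoxa1 0.0202, Dusp7 0.0212, Efnb1 0.032, Enpp5 0.0082, Fcrls 0.0113, Gpr165 0.0162, Gprasp2 0.0336, Ighm 0.0327, Jun 0.0082, Kcnk12 0.00705, Mgll 0.049, Mmp11 0.0162, Mmp28 0.027, Nrarp 0.0212, P2rx1 0.0082, Prkcq 0.0274, Sema4b 0.0162, Snph 0.0202 and Upk1b 0.0082. The 2-month labels conflict for 5 of 6 mice, and under the reading by mouse number 15 of the 29 did not pass, among them Fcrls at 0.772, Dgat2 at 0.449, Dusp7 at 0.387, Ighm at 0.347, Egr2 at 0.286, Lpl at 0.241 and Jun at 0.171. The 2-month log2 difference of Apoe was -0.60 by the record and 1.55 by mouse number, and that of Fcrls was 1.36 and -1.26. It was -2.15 and 2.44 for Dgat2, 1.16 and -2.04 for Duoxa1, 1.51 and -2.36 for Gpr165, and 1.08 and -1.12 for Gprasp2. The sign of the 2-month difference of these genes thus depends on the reading. By mouse number edgeR's quasi-likelihood test called the 2-month difference of Duoxa1 and Gpr165 (adjusted p = 0.0119 and 0.00499). It did not call that of Apoe, Fcrls, Dgat2 or Gprasp2 (0.104, 0.0622, 0.152 and 0.332). By the same reading it called Axl, Egr1, Fn1 and Cxcl14, outside the 29, at 2 months in their end-stage direction. Their 2-month log2 differences were 4.83, 2.82, 4.44 and 3.19 (adjusted p = 0.00269, 0.00285, 0.0119 and 0.0072). Within the 29 it did not call Abcg1 or Dusp1 there (-0.35 and 0.15, adjusted p = 0.44 and 0.805). These genes were picked, and how much of the end-stage result was present at 2 months depends on the reading. Groups of 2 libraries are too small to look for single libraries that stand apart.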

How the results depend on the processing

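All 355 genes kept their sign in every setting, which the lack of overlap between groups largely fixes and which is no sign of stability. The number called was 171 (63 higher) with all 20 libraries by the sample record, 666 (304 higher and 362 lower) by mouse number, 1095 (638 and 457) with DESeq2 and 1384 (891 and 493) with no low-count filter, which tests more genes. With only the 4 cortex-labelled libraries 305 were higher. Leaving out 1 library gave 8 to 136 calls, 2 to 64 higher and 6 to 72 lower, and here the lone library of a group is assumed to vary like the other groups. Leaving out both libraries of 1 mouse, chosen after seeing the data, gave 12 calls (6 higher and 6 lower) for M1375, 114 (75 and 39) for M1521, 175 (98 and 77) for M1376 and 123 (65 and 58) for M1524. Limma-voom called 319 and, with mouse as a replicate block, 357, so the pairing moved this count little. The region difference went from 0 calls to 33 with mouse as a replicate block, 14 with all 20 libraries by mouse number, 104 with DESeq2, 251 with no filter and 1 without mouse M1376. The stage difference went from 75 calls to 44 by mouse number, 506 with DESeq2 and 3 to 30 without 1 library. The cause of these changes was not tested. In the shallowest library, control M1375, 1 count in 9.4e6 limits what can be said of genes near 0.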
